A study of Homo sapiens with 6 samples.

Results

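The 10 genes described here encode glycerophospholipid acyltransferases and lipid phosphate phosphatases, and they were selected on their names among the 62754 genes of the deposited table. GPAT3, LPCAT1 and PLPP3 were already known from these libraries to differ between the groups when the list was drawn up, so the 10 genes were chosen by values of the same contrast that is described below. Their values are therefore given as a description, without a test. All libraries came from HK-2 cells, an immortalised line of human kidney proximal tubule epithelium, and all cells received Cisplatin, a platinum drug that damages DNA and is toxic to the tubule. One group was transfected with a negative control siRNA (siNC) and the other with an siRNA against NAT10 (siNAT10), an RNA acetyltransferase. Each group had 3 mRNA libraries, and no group without Cisplatin was part of the comparison. The library totals were 19321665, 21602988 and 19464027 counts for siNC replicates 1 to 3, and 20793709, 21531774 and 25192736 counts for siNAT10 replicates 1 to 3. The labels number the samples within a group and do not say that they were separate cultures, so p-values measure the spread between these samples, which may be technical.

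Glycerophospholipids are built from glycerol 3-phosphate. The GPAT enzymes add an acyl chain to give lysophosphatidate, AGPAT enzymes add another to give phosphatidate, and phosphatidate leads to triglyceride and to the membrane phospholipids. LPCAT enzymes put acyl chains back onto lysophosphatidylcholine and related lysophospholipids, the remodelling step known as the Lands cycle. PLPP enzymes remove the phosphate from phosphatidate, lysophosphatidate and sphingosine 1-phosphate, and those at the cell surface act on lysophosphatidate outside the cell.

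NAT10 was measured first, because it shows whether the libraries fit their labels. NAT10 had 1428, 1528 and 1409 counts in siNC replicates 1 to 3 and 869, 886 and 1076 counts in siNAT10 replicates 1 to 3. As CPM, counts scaled by TMM library sizes to a common total, this was 73.5 CPM against 41.4 CPM, a log2 fold change of -0.82 (standard error 0.0426, edgeR adjusted p = 2.79e-15), and lower in 3 of 3 siNAT10 libraries than in any siNC library. The level in siNAT10 was 0.565 of that in siNC.

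The label of the cells was compared with markers of the proximal tubule. Of 9 genes of proximal tubule transport, 3 had enough counts to be tested, and SLC22A6 had no count in any library. LRP2 and CUBN, which form the endocytic receptor of this segment, were at or near 0. The most abundant gene of the list was SLC5A2, at 9.30 CPM in siNC and 11.5 CPM in siNAT10, and the sum of all 9 genes was between 12.9 and 14.6 CPM in siNC libraries and between 17.2 and 18.5 CPM in siNAT10 libraries. The 4 brush border enzymes had sums between 36.2 and 36.4 CPM in siNC and between 30.0 and 33.4 CPM in siNAT10. GGT1 made up most of that sum, at 33.2 CPM in siNC and 27.4 CPM in siNAT10, and DPP4 was at 2.71 and 4.45 CPM, while ANPEP and MME had too few counts to be tested. The 7 renal epithelial genes had sums between 1861 and 1945 CPM over the 6 libraries, nearly all of it from the keratins KRT8, at 1455 CPM in siNC and 1450 CPM in siNAT10, and KRT18, at 346 and 269 CPM. CDH1, the epithelial cadherin, had at most 2 counts in a library, and PAX2 was at 0.638 CPM in siNC and 0.826 CPM in siNAT10. The cadherin CDH2 was at 75.2 and 86.2 CPM, PAX8 at 31.4 and 47.2 CPM and EPCAM at 15.5 and 19.3 CPM. The keratins were thus abundant, while CDH1 and most transporters of the differentiated proximal tubule were absent or low. Of 4 leukocyte genes 3 were tested, and their sum was between 198.7 and 216 CPM in siNC and between 266 and 289 CPM in siNAT10. Nearly all of that sum was CD68, a lysosomal protein that is not restricted to leukocytes, while PTPRC, the defining leukocyte gene, had 8, 10 and 7 counts in siNC replicates 1 to 3 and 10, 29 and 17 counts in siNAT10 replicates 1 to 3. PTPRC was called higher (log2 fold change 0.96, edgeR adjusted p = 0.0411) with siNAT10 replicate 2 the highest, and was not called without that library (0.46, edgeR adjusted p = 0.404), without siNC replicate 1, 2 or 3 (edgeR adjusted p = 0.0932, 0.0719 and 0.103) or with DESeq2 (adjusted p = 0.139). Of 3 fibroblast genes LUM alone was tested, at 11.2 CPM in siNC and 11.5 CPM in siNAT10, and none of 3 endothelial genes had enough counts. The part of these levels in the results below was not tested.

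Of the 10 genes, 9 had enough counts to be fitted and 1, LPCAT2, was low. In 3 genes every siNAT10 library was above every siNC library, in 2 genes every siNAT10 library was below, and in 5 genes including LPCAT2 the groups overlapped. Over all 19874 genes tested in this contrast, 44.1% were called at an adjusted p under 0.05, 21.8% higher and 22.3% lower, and 2.33% were called with a log2 fold change over 1 in size. These are shares of calls, and the share of all genes whose groups did not overlap is not given here. Since the list was drawn up with this contrast known, nothing is read from how many of the 10 genes overlapped or did not. The median log2 fold change of the 9 fitted genes was 0.02, and the median over all tested genes was 0.007. In bulk libraries a change in RNA per cell and a change in the mix of cells cannot be told apart.

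**Figure D1:**
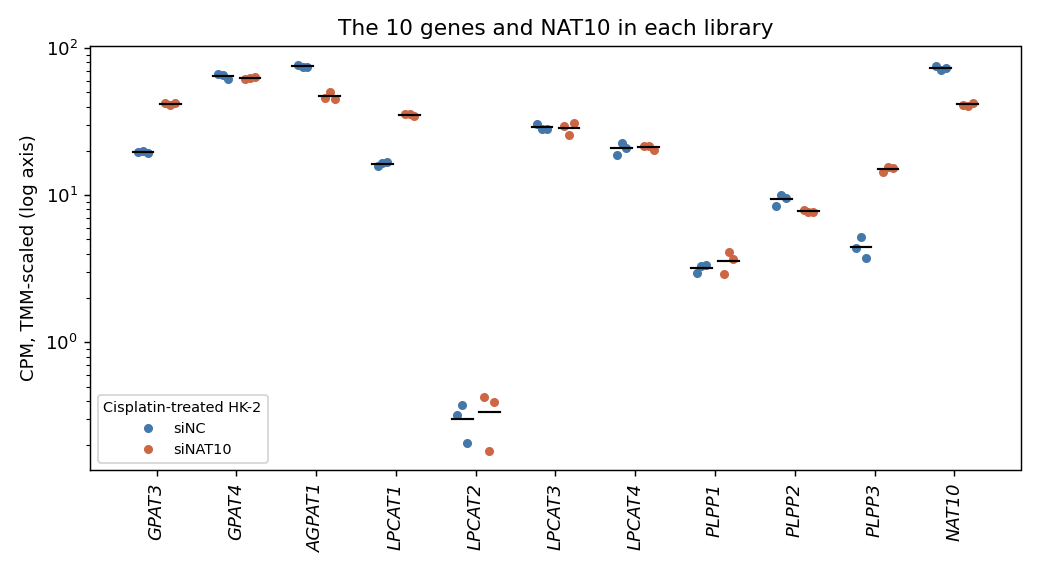
TMM-scaled CPM (log axis) of the 10 genes and NAT10 in each of the 6 libraries, with dots for libraries and bars for group means. GPAT3, LPCAT1 and PLPP3 lie higher in all 3 siNAT10 libraries, AGPAT1, PLPP2 and NAT10 lie lower, and the other genes overlap.

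The first step of the pathway was represented by GPAT3 and GPAT4, the glycerol-3-phosphate acyltransferases of the endoplasmic reticulum. GPAT3 (ENSG00000138678, chr4:83535914-83605139, plus strand, GRCh38) had 370, 426 and 373 counts in siNC replicates 1 to 3 and 893, 904 and 1066 counts in siNAT10 replicates 1 to 3. The siNAT10 libraries were all above the siNC libraries, and the replicates of each group lay close together. Its mean was 19.6 ± 0.266 CPM (SD, n = 3) in siNC and 41.9 ± 0.537 CPM (SD, n = 3) in siNAT10, a log2 fold change of 1.09 (standard error 0.0508), which is 2.13-fold. GPAT4 had 1264, 1396 and 1186 counts in siNC and 1307, 1362 and 1608 counts in siNAT10. Its scaled values overlapped, with 64.6 ± 2.82 CPM in siNC, 62.6 ± 0.723 CPM in siNAT10 (SD, n = 3 each) and a log2 fold change of -0.046 (standard error 0.0415). GPAT4 overlaps 2 antisense genes, GPAT4-AS1 and ENSG00000264578, neither of which was called (log2 fold changes of 0.016 and -0.14, edgeR adjusted p = 0.891 and 0.121), though the latter was without siNAT10 replicate 3 (edgeR adjusted p = 0.0485). ENSG00000264578 overlaps GPAT4 over 11703 bases, at 17.2 CPM in siNC and 15.6 CPM in siNAT10, and the value of GPAT4 is uncertain because the strand setting of the counting is not given in the sources used here. As counted, GPAT3 was higher by a little over 2-fold in siNAT10 and the libraries of GPAT4 overlapped.

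The next enzyme, AGPAT1, turns lysophosphatidate into phosphatidate. AGPAT1 (chr6:32168212-32178096, minus strand) had 1442, 1601 and 1442 counts in siNC replicates 1 to 3 and 969, 1095 and 1138 counts in siNAT10 replicates 1 to 3. All siNAT10 libraries were below all siNC libraries, with 75.4 ± 1.01 CPM in siNC and 47.0 ± 2.74 CPM in siNAT10 (SD, n = 3 each) and a log2 fold change of -0.68 (standard error 0.0438). AGPAT1 overlaps 2 genes of the opposite strand, EGFL8 over 70 bases and the readthrough gene PPT2-EGFL8 over 3767 bases, and its value is uncertain for the same reason as that of GPAT4. These and the other overlapping genes given below were named for their position after their values were seen. PPT2-EGFL8 had 1162, 1281 and 1176 counts in siNC and 902, 870 and 969 counts in siNAT10, a log2 fold change of -0.60 (edgeR adjusted p = 1.35e-11). EGFL8 had 712, 784 and 739 counts in siNC and 588, 545 and 608 counts in siNAT10, a log2 fold change of -0.56 (edgeR adjusted p = 1.86e-09). EGFL8 lies within PPT2-EGFL8 on the same strand, so the values of these 2 genes may not be separate observations. As counted, AGPAT1 and this pair on the opposite strand were lower together.

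The 4 LPCAT genes encode enzymes that reacylate lysophospholipids. LPCAT1, known for making the dipalmitoyl phosphatidylcholine of lung surfactant, had 297, 356 and 323 counts in siNC replicates 1 to 3 and 748, 781 and 870 counts in siNAT10 replicates 1 to 3. LPCAT1 (chr5:1456480-1523960, minus strand) was higher in every siNAT10 library, with 16.4 ± 0.540 CPM in siNC and 35.2 ± 0.763 CPM in siNAT10 (SD, n = 3 each), a log2 fold change of 1.10 (standard error 0.0555). LPCAT2, a form found mainly in inflammatory cells, had between 4 and 10 counts per library and was not fitted. LPCAT3, which prefers polyunsaturated acyl chains, had 575, 603 and 541 counts in siNC and 621, 558 and 788 counts in siNAT10. Its mean was 28.9 ± 1.39 CPM in siNC and 28.7 ± 2.86 CPM in siNAT10 (SD, n = 3 each), and its log2 fold change of -0.0065 (standard error 0.0615) turned positive under library size scaling (0.031), without a filter (0.0048), without siNC replicate 1 (0.030) and without siNAT10 replicate 2 (0.071). LPCAT3 overlaps C1S, a gene of the complement system on the opposite strand that fell (log2 fold change -0.46, edgeR adjusted p = 7.74e-09), and ENSG00000290146, which rose (0.19, edgeR adjusted p = 0.000526), and is likewise uncertain. LPCAT4 had 353, 487 and 405 counts in siNC and 455, 475 and 516 counts in siNAT10. With 20.8 ± 2.01 CPM in siNC and 21.2 ± 0.762 CPM in siNAT10 (SD, n = 3 each) the libraries overlapped, and the log2 fold change of 0.020 (standard error 0.0657) became -0.050 without siNC replicate 1. Of the 3 fitted LPCAT genes, the groups did not overlap in LPCAT1 and overlapped in LPCAT3 and LPCAT4.

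The PLPP genes encode the phosphatases. PLPP3, which breaks down lysophosphatidate at the cell surface, had 83, 112 and 72 counts in siNC replicates 1 to 3 and 301, 340 and 387 counts in siNAT10 replicates 1 to 3. PLPP3 (chr1:56494761-56645301, minus strand) was higher in every siNAT10 library, with 4.46 ± 0.748 CPM in siNC and 15.0 ± 0.659 CPM in siNAT10 (SD, n = 3 each), and its log2 fold change of 1.75 (standard error 0.100) was the largest in size of the 9 fitted genes. ENSG00000284686 overlaps PLPP3 over 29735 bases on the same strand. This gene had 9, 17 and 11 counts in siNC and 30, 33 and 49 counts in siNAT10 (log2 fold change 1.39, edgeR adjusted p = 7.83e-05). How reads from where the pair overlap were counted is not known here, so both values are uncertain. PLPP2 had 160, 216 and 185 counts in siNC and 168, 168 and 196 counts in siNAT10. Once scaled, its libraries did not overlap, with 9.40 ± 0.816 CPM in siNC and 7.80 ± 0.158 CPM in siNAT10 (SD, n = 3 each) and a log2 fold change of -0.27 (standard error 0.0920). PLPP1 was the least counted of the fitted genes, with 56, 71 and 65 counts in siNC and 61, 90 and 93 counts in siNAT10. Its libraries overlapped, and its log2 fold change of 0.15 was about as large as its standard error of 0.148. The log2 fold change was 0.039 without siNAT10 replicate 2, 0.093 without siNC replicate 1 and 0.27 without siNAT10 replicate 1. Whether more depth would resolve a difference of that size was not tested. PLPP1, likewise uncertain, overlaps MTREX on the opposite strand over 726 bases, which had a log2 fold change of 0.087 and was not called (edgeR adjusted p = 0.0615), though it was under library size scaling (edgeR adjusted p = 0.00971).

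Levels were compared between genes per length, as RPKM, the TMM-scaled CPM divided by the gene length of the table in kilobases. In siNC the highest was AGPAT1 at 21.0 RPKM, followed by GPAT4 at 8.14 RPKM, LPCAT3 at 6.16 RPKM and GPAT3 at 5.42 RPKM. LPCAT4 at 4.43 RPKM, LPCAT1 at 2.53 RPKM, PLPP1 at 1.67 RPKM, PLPP2 at 1.35 RPKM and PLPP3 at 0.846 RPKM came next, and LPCAT2 was lowest at 0.0408 RPKM. No neighbours in this order had overlapping libraries. The order rests on the division by gene length. In siNAT10 the order began with AGPAT1 at 13.1 RPKM and GPAT3 at 11.6 RPKM, which came before GPAT4 at 7.89 RPKM. LPCAT1 at 5.44 RPKM came after LPCAT3 at 6.12 RPKM, and their libraries overlapped. PLPP3 at 2.85 RPKM was the highest of the 3 phosphatases in siNAT10, having been the lowest in siNC. Without division by length it was also the highest in siNAT10, but in siNC PLPP1 was lower, at 3.22 CPM against 4.46 CPM for PLPP3.

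**Figure D2:**
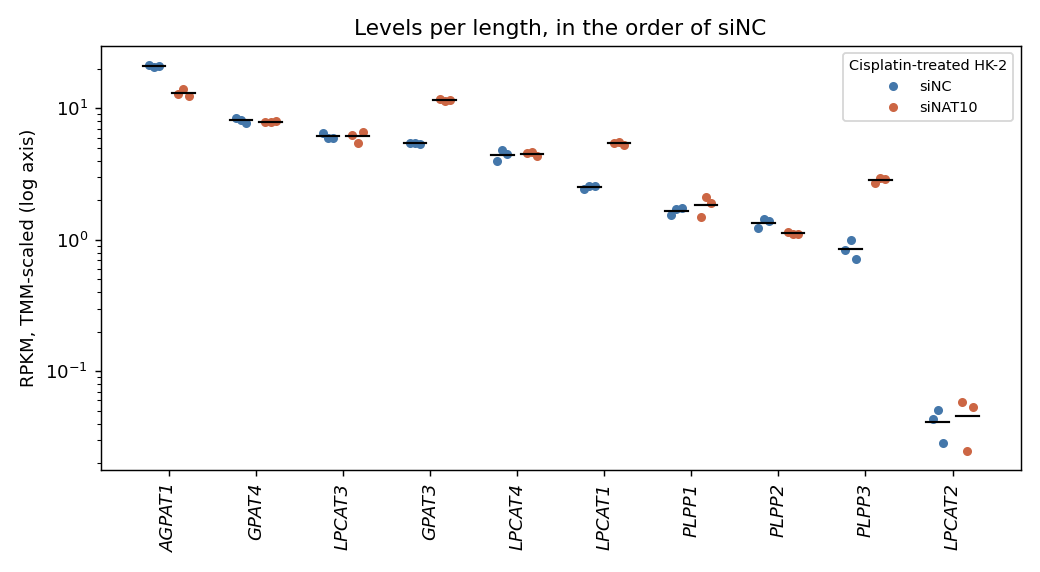
TMM-scaled RPKM (log axis) of the 10 genes in each of the 6 libraries, ordered by the siNC mean, with dots for libraries and bars for group means. In siNC the levels run from AGPAT1 at 21.0 to LPCAT2 at 0.0408, and in siNAT10 GPAT3 lies above GPAT4 and PLPP3 above PLPP1 and PLPP2 on this scale, the order of GPAT3 and GPAT4 being the opposite in CPM.

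The makeup of each family was described as the share of each gene in the family's summed RPKM. GPAT3 made up 39.1%, 40.1% and 40.8% of GPAT3 and GPAT4 in siNC replicates 1 to 3 and 60.0%, 59.3% and 59.2% in siNAT10 replicates 1 to 3, so per length GPAT4 was the larger of the pair in siNC and GPAT3 in siNAT10. Without division by length GPAT4 was the larger in both groups, at 62.6 CPM against 41.9 CPM for GPAT3 in siNAT10. The sum of the pair was 13.6 RPKM in siNC and 19.5 RPKM in siNAT10. LPCAT1 made up 18.8%, 19.1% and 19.8% of LPCAT1 to LPCAT4 in siNC and 33.4%, 35.4% and 32.5% in siNAT10. The sum of these genes was 13.2 RPKM in siNC and 16.1 RPKM in siNAT10, and per length LPCAT3 had the largest mean share in both groups, 46.8% and 37.9%. Without division by length LPCAT1 was the largest in siNAT10, at 35.2 CPM against 28.7 CPM for LPCAT3. PLPP3 made up 23.3%, 23.9% and 18.5% of PLPP1 to PLPP3 in siNC and 50.6%, 47.7% and 49.1% in siNAT10. The shares differed by 19.5 percentage points for GPAT3, 14.5 for LPCAT1 and 27.3 for PLPP3, with no overlap between groups. Each family holds a gene whose value is uncertain from its overlap with another gene, namely GPAT4, LPCAT3, PLPP1 and PLPP3, so the shares are too.

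**Figure D3:**
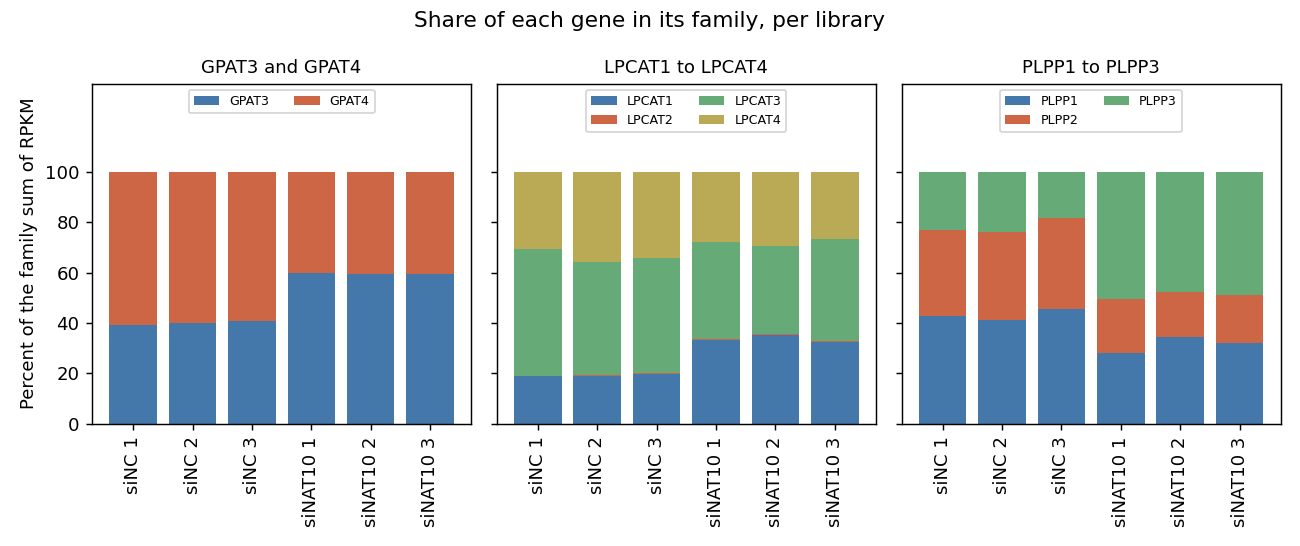
Share of each gene in the summed RPKM of its family, in percent, as stacked bars for each of the 6 libraries. The shares of GPAT3, LPCAT1 and PLPP3 are larger in all 3 siNAT10 libraries than in any siNC library.

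Promoters were taken from RefSeq (GRCh38.p14) for GPAT3, LPCAT1 and PLPP3, because these 3 genes were all more than 2-fold higher in siNAT10. The RefSeq table held a promoter for 7 of the 10 genes. Each sequence below runs 5′ to 3′ on the strand of the gene and has 300 bases, 250 before and 50 after the annotated start. Capitals mark matches, on either strand, to 7 motifs, and every other base is in lower case. The motifs were the TATA box (TATAAA), the CCAAT box (CCAAT), the GC box (GGGCGG), AP-1 (TGANTCA), the E-box (CACGTG), TEAD (GGAATG) and the core of the cyclic AMP response element (TGACGT), and the last was added after the GPAT3 sequence had been seen. The GPAT3 sequence lies at chr4:83535857-83536156 on the plus strand, the LPCAT1 sequence at chr5:1523911-1524210 on the minus strand and the PLPP3 sequence at chr1:56579514-56579813 on the minus strand. The start in the PLPP3 window lies 65.7 kb inside the gene as counted, whereas those of GPAT3 and LPCAT1 lie 0.193 kb from the 5′ end of the counted gene and at that end.
GPAT3: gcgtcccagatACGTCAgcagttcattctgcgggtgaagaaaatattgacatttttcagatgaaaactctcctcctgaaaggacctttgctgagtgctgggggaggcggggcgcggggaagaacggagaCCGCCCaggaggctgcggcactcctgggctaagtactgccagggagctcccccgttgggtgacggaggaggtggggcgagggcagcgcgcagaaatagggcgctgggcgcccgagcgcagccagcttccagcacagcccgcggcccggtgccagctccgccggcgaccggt
LPCAT1: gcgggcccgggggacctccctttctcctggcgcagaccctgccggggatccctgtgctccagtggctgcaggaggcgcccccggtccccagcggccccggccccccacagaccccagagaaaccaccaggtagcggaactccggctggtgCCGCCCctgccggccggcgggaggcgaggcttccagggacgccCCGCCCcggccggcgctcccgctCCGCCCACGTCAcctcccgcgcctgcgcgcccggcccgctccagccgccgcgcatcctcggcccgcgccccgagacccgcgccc
PLPP3: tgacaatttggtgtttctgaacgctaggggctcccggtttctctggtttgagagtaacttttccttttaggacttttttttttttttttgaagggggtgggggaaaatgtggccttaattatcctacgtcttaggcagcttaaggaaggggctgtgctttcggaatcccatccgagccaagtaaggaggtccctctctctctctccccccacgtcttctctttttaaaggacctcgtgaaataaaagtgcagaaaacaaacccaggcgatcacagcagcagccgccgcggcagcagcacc
The GPAT3 window held 1 GC box and 1 response element core, and the LPCAT1 window held 3 GC boxes and 1 response element core. In LPCAT1 the core directly follows a GC box without sharing a base with it. The PLPP3 window, at its internal start, held none of the 7 motifs. Over 35116 promoters of the same length, 45.0% held a GC box and 7.98% a response element core, while the shares were 11.5% for the TATA box, 34.6% for the CCAAT box, 7.71% for AP-1, 7.26% for the E-box and 14.0% for TEAD. The base composition of the windows also differed, with 65.0% G or C in GPAT3, 80.0% in LPCAT1 and 49.0% in PLPP3 against a median of 58.7% over all promoters. A match of this kind describes the letters of the window and does not show that a factor binds there.

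The other genes of the pathway were taken from 9 lists written by role, with 107 genes in all, of which 88 were tested and 19 had too few counts. At an adjusted p under 0.05, 23 rose, 20 fell and 45 were not called, so that 48.9% were called against 44.1% of all tested genes. The balance of higher and lower calls depends on the scaling, since under library size scaling 28 of 44 called pathway genes were higher, as were 57.2% of all called genes instead of 49.4%. The median log2 fold change of the 88 genes was 0.0025, and 2 were past both limits. These were SGPP1, which fell (log2 fold change -1.21, edgeR adjusted p = 1.51e-10), and PLA1A, a phosphatidylserine phospholipase that rose (1.25, edgeR adjusted p = 6.89e-05) and was named after its values were seen. By list, the share called ran from 40% to 58.3%. Below, the called genes of each list are also given where the list has few of them, and those beyond the rule for named genes were chosen after their values were seen. Of the 43 calls, 27 held under all 12 alternative settings. The other 16 were lost under at least 1 of them, and each of the 16 was lost when some single library was dropped, with an edgeR adjusted p of up to 0.257, that of ETNK2 without siNC replicate 2. Among these PLA2G6 was lost under 9, and PLA2G10 under 9 of the 11 settings that tested it, the filter of 1 CPM having removed it. GK and ETNK2 were lost under 8, PLA2G4B and PNPLA6 under 6 and LCLAT1 under 5. CEPT1 and S1PR1 were lost under 4, LPIN2, CDS1 and LPAR1 under 3, CRLS1 under 2 and GPAT2, SELENOI and PNPLA8 under 1. The called pathway genes thus lay in both directions. The share called, 48.9%, was near the 44.1% of all tested genes, and the median of the 88 genes was close to that of all genes.

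**Figure D4:**
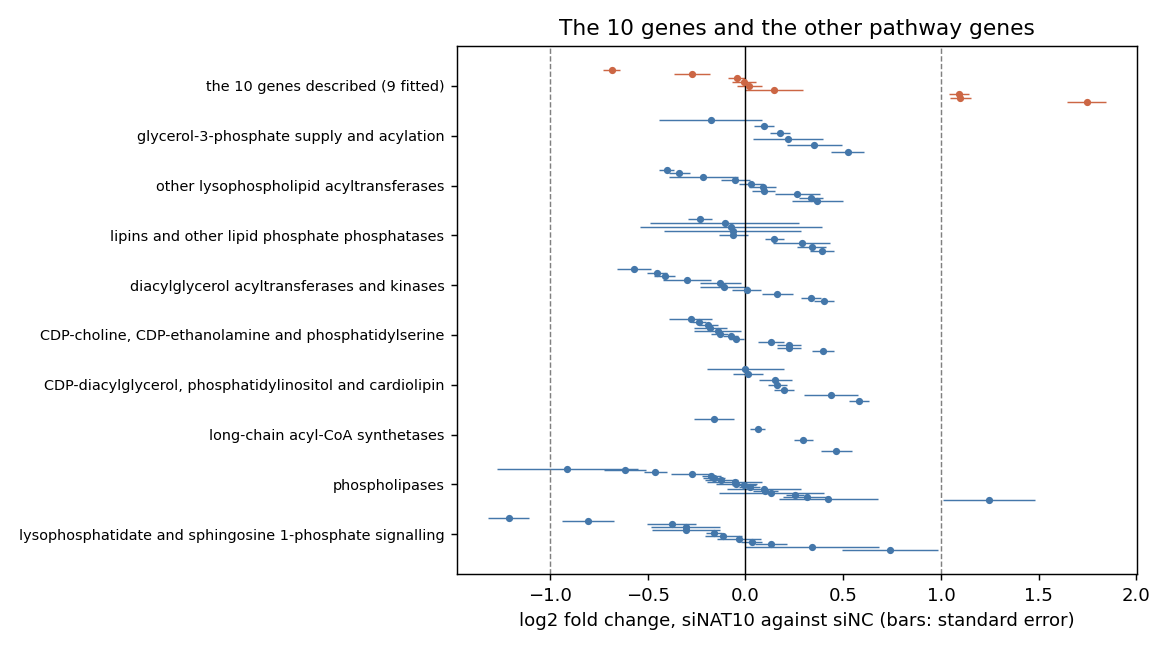
Log2 fold change of siNAT10 against siNC, with standard errors as bars, for the 9 fitted genes described here (orange, top row) and for the 88 tested genes of the 9 pathway lists (blue). Dashed lines mark log2 fold changes of -1 and 1, and SGPP1 and PLA1A are the pathway genes that were called beyond them.

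Of 6 genes that make or use glycerol 3-phosphate, among them the acyltransferases GPAM and GPAT2, 3 were called, all of them higher. This is 50%, against 44.1% of all tested genes called and 21.8% called higher. The calls of GPAT2 and GK were lost under alternatives. GPD2, the mitochondrial glycerol-3-phosphate dehydrogenase, rose with a log2 fold change of 0.52 (edgeR adjusted p = 8.04e-06). GPAT2, a mitochondrial acyltransferase, had the highest level per length of this list and rose by 0.18 (edgeR adjusted p = 0.00666), a call that was lost without siNC replicate 1 (edgeR adjusted p = 0.0688). GK, the kinase that makes glycerol 3-phosphate from glycerol, rose by 0.35 (edgeR adjusted p = 0.0436), a call lost without any 1 of siNC replicates 1 to 3 or of siNAT10 replicates 1 and 2. The acyl chains themselves are activated by long-chain acyl-CoA synthetases, of which 2 of 4 tested (50%) were called, both higher. ACSL3 had a log2 fold change of 0.30 (edgeR adjusted p = 1.27e-05) and ACSL5 of 0.46 (edgeR adjusted p = 1.66e-05). ACSL4, the most abundant per length, had 0.06 and was not called (edgeR adjusted p = 0.201), though it was under library size scaling (edgeR adjusted p = 0.0352).

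Among 10 other lysophospholipid acyltransferases 2 rose, 2 fell and 6 were not called, which is 40% called against 44.1% of all tested genes. LPGAT1, an endoplasmic reticulum acyltransferase, fell by 0.40 on the log2 scale (edgeR adjusted p = 9.57e-10) and AGPAT5 fell by 0.34 (edgeR adjusted p = 5.85e-06). AGPAT3 and LCLAT1, which use lysophosphatidate and other lysophospholipids, rose by 0.33 and 0.37 (edgeR adjusted p = 4.90e-05 and 0.0234), the call of LCLAT1 being lost without siNC replicate 1 or 2 and without siNAT10 replicate 2 or 3. Of the AGPAT genes in this list, AGPAT3 was thus higher and AGPAT5 lower. AGPAT2 and AGPAT4 were not called (log2 fold changes of 0.087 and 0.093, edgeR adjusted p = 0.328 and 0.203).

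Lipins, like the PLPP enzymes, remove the phosphate from phosphatidate. Of 9 tested genes in a list of lipins, other PLPP genes and relatives of the PLPP family, 3 rose and 1 fell. This is 44.4% called against 44.1% of all tested genes. LPIN1, a phosphatidate phosphatase, rose by 0.39 (edgeR adjusted p = 4.95e-06), and PLPPR2, a relative of the PLPP family, rose by 0.34 (edgeR adjusted p = 0.000404). LPIN2 had the highest level per length and rose by 0.15 (edgeR adjusted p = 0.0158). That call was lost with DESeq2 (adjusted p = 0.0858), without siNC replicate 1 (edgeR adjusted p = 0.108) and without siNAT10 replicate 3 (edgeR adjusted p = 0.0787). The lipin that fell was LPIN3, by 0.23 (edgeR adjusted p = 0.00269).

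Of 10 tested diacylglycerol acyltransferases and kinases 2 rose and 3 fell, which is 50% called against 44.1% of all tested genes. DGKH fell by 0.45 (edgeR adjusted p = 4.13e-08) and DGKZ rose by 0.40 (edgeR adjusted p = 1.98e-07), both of them kinases that turn diacylglycerol back into phosphatidate. Of the other kinases DGKD rose by 0.34, and DGKA and DGKE fell by 0.57 and 0.41 (edgeR adjusted p = 4.78e-06, 4.65e-06 and 4.58e-07). The branch through CDP-choline, CDP-ethanolamine and phosphatidylserine had 3 of 12 tested genes higher and 4 lower, which is 58.3% called against 44.1% of all tested genes. PCYT2, of the phosphatidylethanolamine route, rose by 0.40 (edgeR adjusted p = 9.65e-07), and PCYT1A, of the phosphatidylcholine route, fell by 0.24 (edgeR adjusted p = 7.42e-06). PTDSS1, the most abundant per length of that list, had a log2 fold change of -0.08 and was not called (edgeR adjusted p = 0.100), though it was without siNAT10 replicate 1 (edgeR adjusted p = 0.0367). CHKA and SELENOI rose by 0.22 each, and CEPT1, ETNK1 and ETNK2 fell by 0.13, 0.19 and 0.28 (edgeR adjusted p between 0.00292 and 0.0373). In the branch through CDP-diacylglycerol 4 of 7 genes were called, all of them higher, which is 57.1% against 44.1% of all tested genes called and 21.8% called higher. CDS2, which makes CDP-diacylglycerol from phosphatidate, rose by 0.58 (edgeR adjusted p = 1.37e-10), and PTPMT1, of cardiolipin synthesis, rose by 0.20 (edgeR adjusted p = 0.00228). CDS1 and the cardiolipin synthase CRLS1 rose by 0.44 and 0.16 (edgeR adjusted p = 0.0106 and 0.00733). The call of CDS1 was lost with DESeq2 (adjusted p = 0.0516) and without siNC replicate 3 or siNAT10 replicate 3 (edgeR adjusted p = 0.110 and 0.0555), and that of CRLS1 without siNC replicate 1 or siNAT10 replicate 2 (edgeR adjusted p = 0.0860 and 0.0619).

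Some phospholipases release the lysophospholipids that LPCAT enzymes use, while others in the list, such as lysophospholipases, break them down. Of 18 tested, 3 rose and 6 fell, which is 50% called against 44.1% of all tested genes. Of all tested genes, 21.8% were called higher and 22.3% lower. LYPLA1, a lysophospholipase and protein depalmitoylase, fell by 0.46 (edgeR adjusted p = 2.10e-07), and PLAAT3, a phospholipase A, fell by 0.62 (edgeR adjusted p = 2.13e-05). LYPLA2, the most abundant per length, had a log2 fold change of 0.02 and was not called (edgeR adjusted p = 0.779). PLA2G4B and PLA2G12A rose by 0.31 and 0.25, and PLA2G6, PLA2G10, PNPLA6 and PNPLA8 fell by 0.27, 0.91, 0.16 and 0.17 (edgeR adjusted p between 3.65e-05 and 0.0419). Lysophosphatidate and sphingosine 1-phosphate signalling shares substrates with PLPP3, and of 12 tested genes 1 rose and 4 fell, which is 41.7% called against the same 44.1%. SGPP1, a phosphatase of sphingosine 1-phosphate inside the cell, went from 9.64 CPM to 4.14 CPM, and S1PR5, a sphingosine 1-phosphate receptor, fell by 0.81 (edgeR adjusted p = 1.08e-05). SPHK1, the kinase that makes sphingosine 1-phosphate, had a log2 fold change of 0.03 and was not called (edgeR adjusted p = 0.663). The lysophosphatidate receptor LPAR1 rose by 0.74, and SGPL1 and S1PR1 fell by 0.16 and 0.38 (edgeR adjusted p = 0.0152, 0.00228 and 0.0149). The 2 phosphatases thus lay on opposite sides, PLPP3 higher and SGPP1 lower in siNAT10.

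With 3 libraries in each group an exact two-sided permutation test of a single value cannot go below p = 0.10, so the adjusted p-values rest on the spread that edgeR shares across genes.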

How the data were processed

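RNA of Cisplatin-treated HK-2 cells was sequenced for the study by a company from 3 siNC and 3 siNAT10 libraries, made with a stranded mRNA kit whose molecular identifiers are, per the study's methods, meant to correct for duplicates. The deposited values are raw counts per gene, made before deposit with Trimmomatic 0.36, STAR 2.5.3a and featureCounts of Subread 1.5.1 on GRCh38, per the submitters' processing notes, which also name edgeR 3.12.1. The strand setting, the annotation release and the step, if any, at which identifiers were merged before counting are not given in the sources used here.

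From these counts, genes were tested with edgeR 4.0.16 (quasi-likelihood, TMM, filterByExpr, Benjamini-Hochberg over 19874 of 62754 genes) in R 4.3.3. DESeq2 1.42.0 was an alternative. Other alternatives were RLE and library size scaling, no filter, a filter of 1 CPM in 3 libraries, the replicate number as a block, each library left out, and family shares without division by length. Genes were called at an adjusted p under 0.05, and both limits add a log2 fold change over 1 in size. A gene of the 10 with fewer than 3 libraries of 10 counts was low. Named genes were the 10 genes, NAT10 and, of each pathway list, the 2 tested genes with the smallest p and the one with the highest mean level per length. The 10 genes, the lists and the markers were chosen with earlier results of these data known. Gene types came from GENCODE 29, in which 95.3% of tested genes were found, and sequences from RefSeq. Python 3.11.15, pandas 2.3.3, numpy 2.4.6 and matplotlib 3.10.9 were used.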

Additional observations from a re-analysis of the deposited data

How the results depend on the processing

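GPAT3, AGPAT1, LPCAT1, PLPP2 and PLPP3 kept their direction under all 12 alternatives, as did GPAT4 and PLPP1. When 1 library was left out, GPAT4 (-0.046) ranged from -0.082, without siNC replicate 3, to -0.021, without siNC replicate 1, and PLPP1 (0.15) from 0.039, without siNAT10 replicate 2, to 0.27, without siNAT10 replicate 1. GPAT4 was -0.0077 under library size scaling. The log2 fold change of GPAT3 was 1.13 under library size scaling, which moved the median of all genes by 0.037. LPCAT3 changed sign from -0.0065 to 0.031 under library size scaling and to 0.0048 without a filter, and ranged from -0.071 to 0.071 when 1 library was left out. LPCAT4 ranged from -0.050 to 0.086 and LYPLA2 from -0.0076 to 0.054 when 1 library was left out, LYPLA2 being -0.0076 without siNC replicate 3 and -0.0014 without siNAT10 replicate 1. Genes past both limits numbered 464, against 711 without a filter and 299 with the stricter filter, which test more and fewer genes. Without division by length, the family shares differed by 16.8 percentage points for GPAT3, 16.5 for LPCAT1 and 30.9 for PLPP3, and the order of levels changed. In CPM, GPAT4 (62.6) was above AGPAT1 (47.0) and GPAT3 (41.9), and LPCAT1 (35.2) above LPCAT3 (28.7), in siNAT10. In siNC, LPCAT4 (20.8) was above GPAT3 (19.6), and PLPP2 (9.40) and PLPP3 (4.46) above PLPP1 (3.22). GPAT4-AS1, at 0.016, ranged from -0.051 to 0.093 when 1 library was left out. Over all alternatives and other named genes, 78 calls were lost and 4 gained, the direction being the same in each; those gained were of ACSL4 and, under library size scaling, MTREX (edgeR adjusted p = 0.00971), of PTDSS1 and of ENSG00000264578. Of 43 called pathway genes, 16 lost the call under at least 1 alternative. Called pathway genes ranged from 31 to 44 around 43, and under library size scaling 28 of 44 were higher instead of 23 of 43, as were 57.2% instead of 49.4% of all called genes. Same-numbered libraries did not deviate together (correlations of -0.042, 0.011 and -0.143), and pairs with unlike numbers ran from -0.115 to 0.147. Deviations were taken from group means of only 3 libraries, so these correlations cannot settle whether same-numbered libraries were handled together. With the replicate block 8526 genes were called instead of 8771, 461 instead of 464 were past both limits, and 40 instead of 43 pathway genes were called. Except where stated, the cause was not tested. Among the 10 genes counts were lowest in LPCAT2, with at most 10 in a library, and then in PLPP1. The standard error of PLPP1, 0.148, was the largest of the 9 fitted genes.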
